A study of Homo sapiens with 12 samples.

Results

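The genes considered here are 10 human genes of glycolysis and of the response to low oxygen: SLC2A1, HK2, PGK1, ENO1, LDHA, PDK1, VEGFA, ADM, BNIP3 and CA9. They were taken by name from the 58233 genes of a count table and not by a rule on their values, though earlier results of these data were known. Of these genes, 9 had enough counts to be among the 16657 genes tested. RNA was sequenced from HCT116 cells, a human colorectal carcinoma line, in 4 groups of 3 libraries, each from an independent experiment. Both lines carried OsTIR1, the plant auxin receptor, under a doxycycline-inducible promoter (HCT116 Tet-OsTIR1), and the SDS22-degron line carried in addition the mAID-mClover tag on endogenous SDS22, a regulatory subunit of protein phosphatase PP1. Parental and SDS22-degron cells received no treatment or, for 48 h, 2 µg/ml doxycycline (Dox) and 500 µM of the auxin IAA, which together target the tagged SDS22 for degradation. The parental cells received the same agents, so Dox, IAA and OsTIR1 are shared by the treated groups. Besides the tag, the donor DNA of the SDS22-degron line carried cassettes for resistance to neomycin or hygromycin, and the line was selected with hygromycin and G418 and expanded from single colonies, hence effects of the cassettes, the selection and the cloning cannot be told apart from those of the tag. All cells were grown in low-glucose medium, and the labels name no exposure to low oxygen.

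Glycolysis converts glucose to pyruvate, which is either reduced to lactate or enters the mitochondria to be oxidized. Many of its genes are targets of the hypoxia-inducible factors (HIFs), transcription factors whose alpha subunits are hydroxylated and destroyed while oxygen is present. HIFs bind a short DNA motif and raise glucose uptake, lactate production, vessel growth and mitophagy, and tumour cells often keep these genes on in normal oxygen. Glycolytic genes also respond to growth signals, MYC and glucose itself, so they are not read as a measure of oxygen alone.

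The promoters of 4 genes are shown, since these genes were either called in the test of the difference between the lines' responses or changed most. RefSeq (GRCh38.p14) held promoters of 9 of the 10 genes, and VEGFA was not matched. Each line is the 120 bases before the start of a RefSeq transcript, 5′ to 3′ on the strand of the gene, with the core of the HIF motif (ACGTG or GCGTG, or the same letters on the other strand, CACGT or CACGC, overlaps counted) in capitals.
LDHA: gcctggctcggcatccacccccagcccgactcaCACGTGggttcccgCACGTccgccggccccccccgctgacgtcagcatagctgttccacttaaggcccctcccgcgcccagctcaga
ENO1: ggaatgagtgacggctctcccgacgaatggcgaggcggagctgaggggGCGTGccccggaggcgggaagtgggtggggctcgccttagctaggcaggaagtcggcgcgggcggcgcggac
HK2: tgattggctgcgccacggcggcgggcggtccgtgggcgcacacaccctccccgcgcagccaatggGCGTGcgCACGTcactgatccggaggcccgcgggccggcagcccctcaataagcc
ADM: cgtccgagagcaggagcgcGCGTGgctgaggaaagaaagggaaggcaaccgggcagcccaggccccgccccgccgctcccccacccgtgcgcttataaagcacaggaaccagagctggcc
These stretches lie at chr11:18394443-18394562 (LDHA, plus strand), chr1:8878687-8878806 (ENO1, minus strand), chr2:74834007-74834126 (HK2, plus strand) and chr11:10304953-10305072 (ADM, plus strand). LDHA had 3 matches in this stretch, of which 2 overlap in CACGTG, HK2 had 2, and ENO1 and ADM had 1 each. A second RefSeq start of LDHA, not shown, had 0 matches in its 120 bases, and a second one of HK2 had 2. Of the genes not shown, SLC2A1 and PGK1 had 0 matches in their 120 bases. CA9 had 1 and BNIP3 had 2, while the starts of PDK1 had 0 and 2. ENO1 and ADM both carried GCGTG, and their transcripts moved in opposite directions in treated SDS22-degron cells. The part of the motif in these changes was not tested. In windows from 250 bases before to 50 bases after the start, 11 of the 12 entries of these 9 genes had a match (1 of the 2 entries of PDK1 had none), while 48.4% of 35116 human promoter windows had one. A stretch of 120 bases before the start held a match in 27.5% of them, so that a match alone is common.

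Libraries held 12133915 to 14657508 counts. Expression is given as CPM, the count of a gene scaled to a common library size with TMM factors. Fold changes, their errors and p values come from the quasi-likelihood test of edgeR, with p adjusted after Benjamini and Hochberg over every tested gene. A gene was called when its adjusted p was under 0.05. PPP1R7, the gene of SDS22, had mean levels between 43.7 and 47.9 CPM in the 4 groups, which does not check the depletion because the tag acts on the protein. Of the epithelial markers, EPCAM had a mean of 269 to 293 CPM per group and KRT8 and KRT18 were higher still. CDH1 had a mean of 113 ± 20.3 CPM (SD, n = 3) in parental cells and of 189 ± 7.31 CPM in SDS22-degron cells after treatment. Of 4 markers of other cell types, DCN had 0 counts, PECAM1 had 1 and PTPRC had 3 over all libraries, and the part of the counting in the 0 of DCN was not tested. Only COL1A1 was expressed, so the summed level of these markers was 9.88 to 13.4 CPM in untreated and 17.2 to 22.8 CPM in treated parental cells, and 13.6 to 15.7 CPM in untreated and 21.2 to 31.7 CPM in treated SDS22-degron cells. It moved with Dox/IAA in both lines, and its part in the results was not tested. In bulk RNA, fewer cells that express a gene and less of its RNA per cell cannot be told apart.

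SLC2A1 and HK2 moved in opposite directions after Dox/IAA, in both lines. SLC2A1 (GLUT1), the main glucose transporter of most tumour cells, rose 1.56-fold in SDS22-degron and 1.32-fold in parental cells. HK2, the inducible hexokinase that traps glucose as glucose 6-phosphate, fell 2.06-fold in SDS22-degron and 1.72-fold in parental cells.
The SLC2A1 level was 250.2, 256 and 254 CPM in the untreated parental libraries and 315, 311 and 379.8 CPM in the treated ones. In SDS22-degron cells it was 251, 290.0 and 293 CPM before and 379, 451 and 469 CPM after treatment. The treated libraries were thus above the untreated ones in each line without overlap, but treated replicate 1 of SDS22-degron cells lay just under the highest treated parental library. The log2 fold change was 0.40 (95% CI 0.22 to 0.59, adjusted p = 0.00211) in parental and 0.64 (95% CI 0.45 to 0.83, adjusted p = 9.09e-06) in SDS22-degron cells. Between the treated lines SLC2A1 was higher in SDS22-degron cells, with a log2 fold change of 0.37 (adjusted p = 0.00239), yet the difference between both responses was 0.23 (95% CI -0.03 to 0.50, adjusted p = 0.229) and not called.
For HK2, the libraries stood at 92.3, 71.8 and 77.2 CPM in untreated and 54.3, 41.4 and 44.6 CPM in treated parental cells. The corresponding HK2 values were 84.1, 77.4 and 79.0 CPM and 40.8, 37.1 and 39.1 CPM in SDS22-degron cells. Untreated and treated libraries did not overlap in either line, and the log2 difference between the untreated lines had a 95% CI from -0.20 to 0.20. HK2 fell by 0.78 on the log2 scale in parental cells (adjusted p = 1.81e-05) and by 1.04 in SDS22-degron cells (adjusted p = 1.28e-07), and the difference between the responses, -0.26 (95% CI -0.55 to 0.04), was not called (adjusted p = 0.235). Between the treated lines HK2 was 1.20-fold lower in SDS22-degron cells (adjusted p = 0.0446). That call was lost in 11 of 23 alternatives, among them DESeq2 (-0.25, adjusted p = 0.0561) and the addition of pseudogene counts (-0.24, adjusted p = 0.072). Others of these were the fits without treated parental replicate 1 (-0.15, adjusted p = 0.249) or 3, treated SDS22-degron replicate 2 (-0.23, adjusted p = 0.132) or 3, or any untreated SDS22-degron library. HK2 has 1 pseudogene with counts equal to 19.1% of its own.
HK1, the constitutive hexokinase, named here after its values were seen, rose where HK2 fell. Its log2 fold change with Dox/IAA was 0.42 (adjusted p = 0.000125) in parental and 0.39 (adjusted p = 6.57e-05) in SDS22-degron cells. Per kb of gene length, HK1 was between 16.3 and 17.7 CPM in treated parental and between 21.6 and 24.6 CPM in treated SDS22-degron libraries, above HK2 in all of them. HK1 was already higher in SDS22-degron cells between the untreated lines, by 0.50 on the log2 scale (adjusted p = 2.21e-05). The difference between the HK1 responses, -0.04, was not called (adjusted p = 0.842). The sum of HK1 and HK2 was 25.7 ± 1.52 CPM per kb before and 24.4 ± 1.91 after treatment in parental cells (SD, n = 3), and 30.8 ± 0.333 before and 29.5 ± 1.68 after treatment in SDS22-degron cells, with overlapping libraries in each line.

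**Figure D1:**
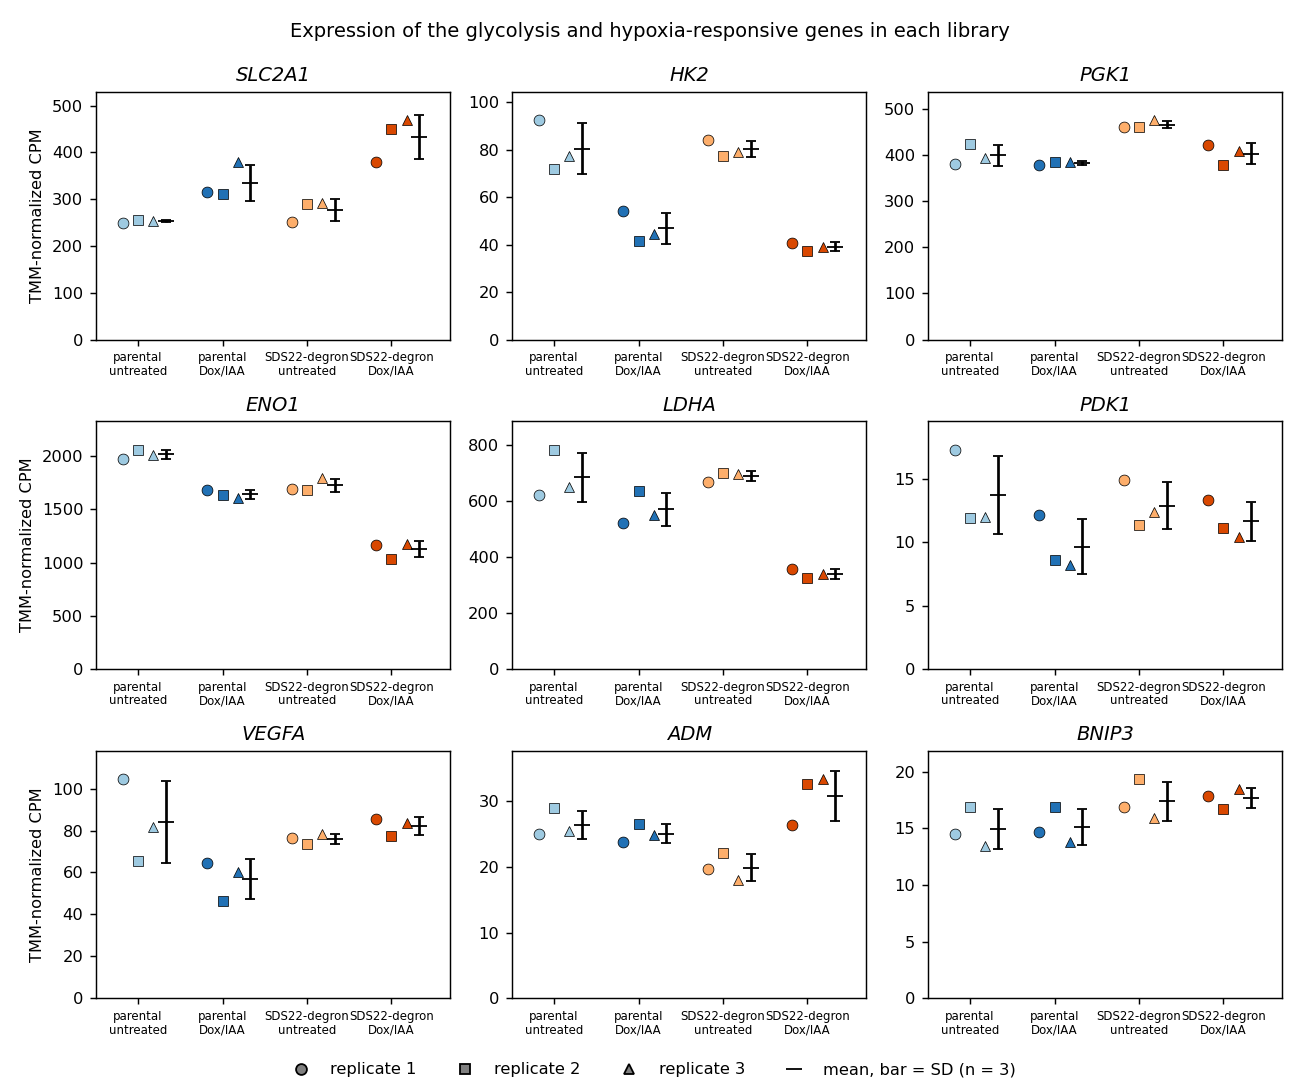
TMM-normalized CPM (vertical axes, from 0) of the 9 genes with counts in each of the 12 libraries, by group, with symbols for the replicate number and a bar for the mean and SD of 3 libraries. LDHA and ENO1 were lowest in treated SDS22-degron cells, SLC2A1 had its highest mean there, HK2 was low in both treated groups, and VEGFA was low in treated parental cells.

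In the lower part of glycolysis, ENO1 and PGK1 moved by smaller values than HK2. ENO1, the enolase that makes phosphoenolpyruvate, fell in both lines and fell further in SDS22-degron cells. PGK1, the phosphoglycerate kinase of the first ATP-yielding step, fell 1.16-fold in SDS22-degron cells and was not called in parental cells. The difference between the PGK1 responses, -0.15 on the log2 scale (95% CI -0.33 to 0.04), was not called (adjusted p = 0.29).
ENO1, the most abundant of these transcripts, was at 1977, 2059.6 and 2012 CPM in untreated parental libraries and 1682, 1631 and 1607 CPM after Dox/IAA. In SDS22-degron libraries ENO1 was at 1694, 1683 and 1797 CPM untreated and 1166, 1038 and 1170.2 CPM treated. The treated SDS22-degron libraries lay below all others, and the untreated SDS22-degron libraries were already below the untreated parental ones. ENO1 fell by 0.30 on the log2 scale in parental cells (adjusted p = 0.00265) and by 0.62 in SDS22-degron cells (adjusted p = 6.21e-07), and the responses differed by -0.32 (95% CI -0.52 to -0.12, adjusted p = 0.0315). That call was lost without untreated parental replicate 3, treated parental replicate 2, any of the untreated SDS22-degron libraries or treated SDS22-degron replicate 2, with adjusted p up to 0.0909 and a difference of -0.26 without the last of these. Between the untreated lines ENO1 differed by -0.23 (adjusted p = 0.018), which was not called without untreated parental replicate 2 (-0.19, adjusted p = 0.0604) or without untreated SDS22-degron replicate 1 (-0.21, adjusted p = 0.0654) or 2 (-0.21, adjusted p = 0.0779). In that comparison the 78 tested genes within 5 Mb of it had a median of -0.26 and all tested genes one of 0.00. The part of this chromosomal neighbourhood in the ENO1 difference was not tested.
PGK1 was at 381, 424 and 392 CPM in untreated and 378, 386 and 384 CPM in treated parental cells. In SDS22-degron cells PGK1 was at 460.3, 461 and 475 CPM untreated and 422, 377 and 409 CPM treated. Its untreated SDS22-degron libraries were the highest of all and overlapped with no other group. PGK1 was 1.17-fold higher there than in untreated parental cells (adjusted p = 0.0126), fell by 0.21 on the log2 scale with Dox/IAA (95% CI -0.34 to -0.08, adjusted p = 0.00933), and did not differ detectably between the treated lines (log2 0.07, 95% CI -0.06 to 0.21). Without treated SDS22-degron replicate 2, PGK1 fell by 0.16 on the log2 scale (adjusted p = 0.0569). PGK1 has 1 pseudogene with counts equal to 12.7% of its own. With these added, the log2 fold change in SDS22-degron cells was -0.21.

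At the fork of pyruvate, LDHA showed the largest difference between the lines' responses of the 9 genes, and PDK1 was expressed at a low level. LDHA, the lactate dehydrogenase subunit that favours lactate production, fell 2.03-fold in SDS22-degron cells and 1.20-fold in parental cells. PDK1, a kinase that restrains the entry of pyruvate into the mitochondria, fell 1.42-fold in parental cells and was not called in SDS22-degron cells. The difference between the PDK1 responses, 0.36 on the log2 scale (95% CI -0.15 to 0.87), was not called (adjusted p = 0.349).
LDHA was at 619.9, 781 and 648 CPM in untreated parental libraries and 521, 636 and 549 CPM in treated ones, with overlap. In SDS22-degron libraries LDHA was at 667, 699 and 696 CPM untreated and 356, 323 and 338 CPM treated. All 3 treated SDS22-degron libraries were below every other library, while the untreated lines differed by 0.01 on the log2 scale (95% CI -0.17 to 0.19). LDHA fell by 1.02 in SDS22-degron cells (95% CI -1.20 to -0.84, adjusted p = 3.45e-08) and by 0.26 in parental cells (95% CI -0.45 to -0.08, adjusted p = 0.026), both on the log2 scale. The responses differed by -0.76 (95% CI -1.01 to -0.50, adjusted p = 0.000461), and the treated lines differed by -0.75 (adjusted p = 1.92e-06). The small change in parental cells was lost without untreated parental replicate 2, at -0.15 (adjusted p = 0.174), without treated parental replicate 1, at -0.20 (adjusted p = 0.13), or without treated parental replicate 3, at -0.24 (adjusted p = 0.0928), and also under library size only or with only the groups compared. LDHA has 6 pseudogenes with counts equal to 24.9% of its own, and with these added the fall in SDS22-degron cells was -1.03 on the log2 scale.
PDK1 was at 17.3, 11.9 and 12.0 CPM in untreated and 12.1, 8.61 and 8.18 CPM in treated parental cells. In SDS22-degron cells PDK1 was at 14.9, 11.3 and 12.4 CPM untreated and 13.3, 11.2 and 10.5 CPM treated. Replicate 1 was the highest for PDK1 in each of the 4 groups, and the groups overlapped. The log2 fold change of -0.50 in parental cells (adjusted p = 0.0332) shrank to -0.31 (adjusted p = 0.186) without untreated parental replicate 1, and it also lost its call without treated replicate 2 (-0.43, adjusted p = 0.094) or 3 (-0.40, adjusted p = 0.14), under library size only or with only the groups compared. Between the treated lines PDK1 differed by 0.27 (95% CI -0.10 to 0.64, adjusted p = 0.224), or by 0.28 (adjusted p = 0.0453) once the replicate block was in the fit. Without treated parental replicate 1 the difference was 0.47 (adjusted p = 0.0444).

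Among the hypoxia-responsive genes with secreted products, VEGFA and ADM were higher in treated SDS22-degron cells than in treated parental cells, and the group that moved was a different one for each. VEGFA, which encodes a growth factor for blood vessels, fell in parental cells after Dox/IAA and was not called in SDS22-degron cells. ADM, which encodes the vasodilator peptide adrenomedullin, rose in SDS22-degron cells and was not called in parental cells. BNIP3, a mitophagy receptor, was called in no comparison, and CA9, a carbonic anhydrase of the cell surface, had 0 counts throughout.
VEGFA was at 104, 65.4 and 81.7 CPM in untreated and 64.6, 46.3 and 60.4 CPM in treated parental cells. In SDS22-degron cells VEGFA was at 76.3, 73.7 and 78.4 CPM untreated and 85.6, 77.5 and 83.8 CPM treated. The treated parental libraries were the lowest of all, and untreated parental replicate 1 stood above every other library. VEGFA fell by 0.55 on the log2 scale in parental cells (adjusted p = 0.00343) against a log2 fold change of 0.11 (95% CI -0.16 to 0.38) in SDS22-degron cells. The responses differed by 0.66 (95% CI 0.28 to 1.05, adjusted p = 0.0199), which became 0.47 (adjusted p = 0.0556) without untreated parental replicate 1 and 0.64 (adjusted p = 0.0508) without untreated SDS22-degron replicate 2. Between the treated lines VEGFA was 1.44-fold higher in SDS22-degron cells (adjusted p = 0.00288).
ADM was at 25.0, 28.8 and 25.4 CPM in untreated and 23.7, 26.5 and 24.9 CPM in treated parental cells. In SDS22-degron cells ADM was at 19.6, 22.1 and 17.9 CPM untreated and 26.4, 32.6 and 33.3 CPM treated. The untreated SDS22-degron libraries were the lowest of all, and the treated ones overlapped with both parental groups. ADM was 1.33-fold lower in untreated SDS22-degron than in untreated parental cells (adjusted p = 0.00768), rose 1.54-fold with Dox/IAA (adjusted p = 7.35e-05) and was then 1.23-fold higher than in treated parental cells (adjusted p = 0.0269). The responses differed by 0.71 (95% CI 0.39 to 1.02, adjusted p = 0.00377), with a lower untreated level and a higher treated level in SDS22-degron cells. The difference between the treated lines lost its call when any of 4 single libraries was left out: treated parental replicate 1 or 3, or treated SDS22-degron replicate 2 or 3. It was then between 0.24 (adjusted p = 0.124) and 0.29 (adjusted p = 0.0658). The difference between the untreated lines lost its call without untreated parental replicate 2 (-0.32, adjusted p = 0.0546).
BNIP3 was between 13.4 and 16.9 CPM in parental libraries and between 15.9 and 19.3 CPM in SDS22-degron libraries, treated or not. Its log2 fold change with Dox/IAA was 0.02 in both lines, with 95% CI of -0.23 to 0.26 in parental and -0.21 to 0.26 in SDS22-degron cells. The 39 pseudogenes named after BNIP3 had counts equal to 73.3% of its own, and with these added BNIP3 was higher in untreated SDS22-degron than in untreated parental cells, by 0.30 (adjusted p = 0.0102) on the log2 scale against 0.22 (adjusted p = 0.168) without them. It was also called between the treated lines without treated parental replicate 2, at 0.33 (adjusted p = 0.0381).
For CA9, 0 counts over all 12 libraries allow a level of up to 0.0193 CPM, for counting error only. CA9 overlaps ARHGEF39 on the other strand, which had 4167 counts, and the part of this overlap in its count was not tested.

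Set side by side, the 9 tested genes were called in both directions in each comparison. Between the treated lines 3 were higher (SLC2A1, VEGFA and ADM) and 3 lower (HK2, ENO1 and LDHA) in SDS22-degron cells, where 21.8% of all tested genes were called higher and 23.1% lower. Between the untreated lines 3 were called (PGK1 higher, ENO1 and ADM lower), where 28.2% of all tested genes were called in either direction. Dox/IAA in parental cells gave 1 higher (SLC2A1) and 5 lower (HK2, LDHA, ENO1, VEGFA and PDK1), against 15.9% and 15.7%. Scaling by library size alone left 3 of the 5 lower and changed the split over all tested genes from 2656 higher and 2608 lower to 3503 and 1958.
Dox/IAA in SDS22-degron cells gave 2 higher (SLC2A1 and ADM) and 4 lower (HK2, LDHA, PGK1 and ENO1), against 26.0% and 25.5% of all tested genes. The difference between the responses was called for 2 genes above 0 (VEGFA and ADM) and 2 below 0 (LDHA and ENO1), against 6.03% and 8.35%. With 9 genes, 1 gene is a large share, and these counts are not read as a property of the group. The median log2 fold change of the 9 genes was -0.14 for Dox/IAA in SDS22-degron cells and -0.26 in parental cells, where all tested genes had medians of 0.00 in both.
At the cut-off of the study (p under 0.05, and a log2 fold change above 1 in size), HK2 and LDHA passed with Dox/IAA in SDS22-degron cells, and none of the 9 passed in the other comparisons. The study used its cut-off between the treated lines, with p values of the likelihood ratio test. Here it was applied to the p values of the quasi-likelihood test in every comparison. This cut-off held 7.83% of all tested genes for Dox/IAA in SDS22-degron cells and 3.14% in parental cells. It held 6.63% between the treated lines, 4.14% between the untreated lines and 3.60% for the difference between the responses.

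**Figure D2:**
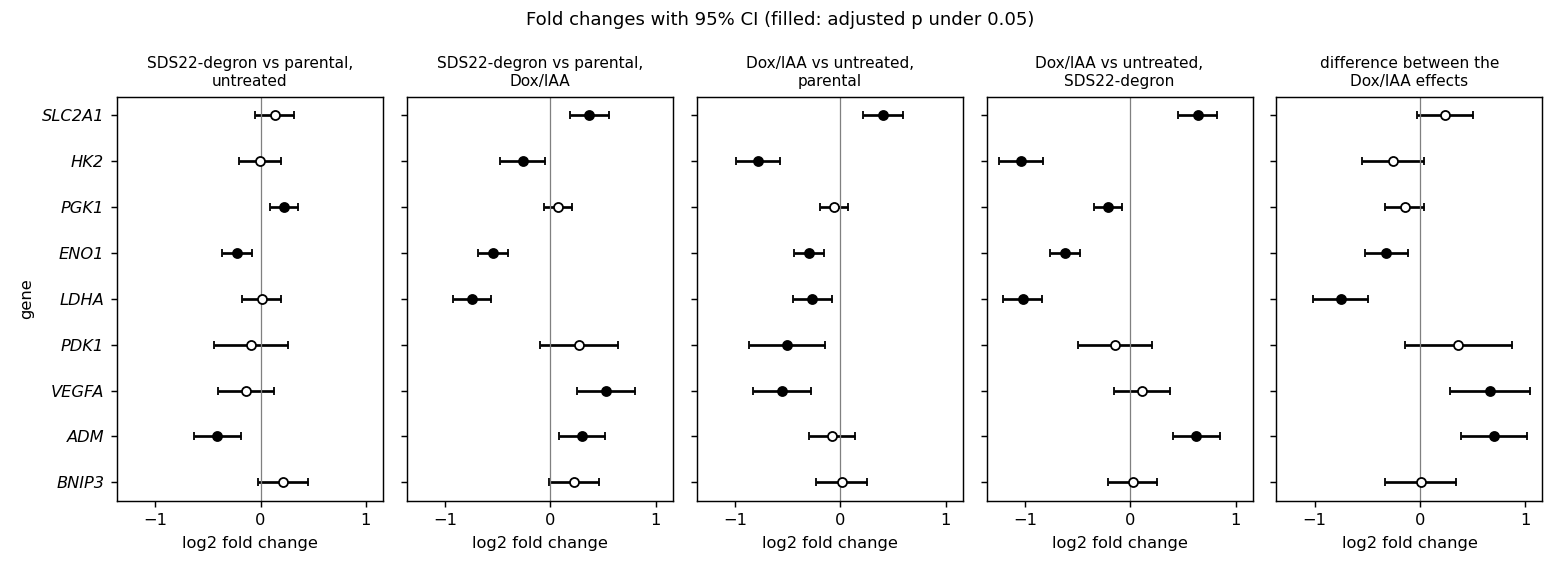
Log2 fold change with its 95% CI (horizontal axes) of the 9 genes in the 4 pairwise comparisons and in the difference between the Dox/IAA effects (SDS22-degron minus parental), with filled points where the adjusted p was under 0.05. LDHA and ENO1 lie left of 0 and VEGFA and ADM right of 0 in the last panel, while HK2, SLC2A1, PGK1, PDK1 and BNIP3 have intervals that include 0.

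Levels of different genes were compared per kb of the gene length given in the table. In untreated parental cells ENO1 was the highest with 509 ± 10.5 CPM per kb, followed by LDHA with 110.0 ± 13.9, PGK1 with 73.7 ± 4.12 and SLC2A1 with 53.7 ± 0.593 CPM per kb (SD, n = 3 each). HK2 had 13.3 ± 1.75, ADM 9.71 ± 0.782, VEGFA 5.81 ± 1.36, BNIP3 2.81 ± 0.332 and PDK1 0.923 ± 0.208 CPM per kb. The order was the same in untreated SDS22-degron cells.
In treated SDS22-degron cells SLC2A1, with 91.6 ± 10.1 CPM per kb, stood above PGK1, with 74.4 ± 4.22, and LDHA, with 54.6 ± 2.69, stood below both. ADM, with 11.3 ± 1.40 CPM per kb, stood above HK2, with 6.43 ± 0.307. In the libraries of a group, neighbours in the order did not overlap, other than SLC2A1 with PGK1 and ADM with HK2 in treated parental cells. The gene lengths take in all exons, so a gene with long and rarely used exons has a lower value per kb than its main transcript.

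**Figure D3:**
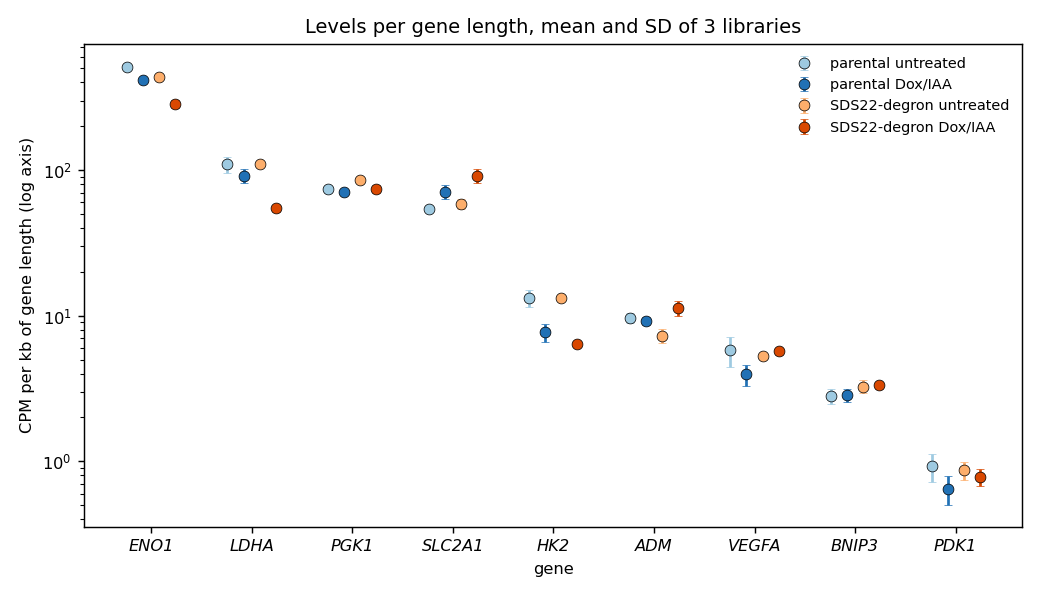
Mean level per kb of gene length (vertical log axis, CPM per kb) with SD of 3 libraries for the 9 genes in the 4 groups. SLC2A1 lies above LDHA only in treated SDS22-degron cells, with 91.6 against 54.6 CPM per kb.

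Several of these genes were ordered alike by replicate number in the 4 groups. HK2 was highest in replicate 1 and lowest in replicate 2 in 4 of 4 groups, PDK1 was highest in replicate 1 in 4 of 4 and VEGFA in 3 of 4 groups, with VEGFA lowest in replicate 2 in 4 of 4. LDHA, PGK1, SLC2A1 and ADM were lowest in replicate 1 in 3 of 4 groups each. These are descriptions of 3 experiments, and their conditions were not recorded in the labels.

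Other enzymes and transporters of glycolysis moved in both directions as well. Of 18 such genes, 5 rose and 9 fell with Dox/IAA in SDS22-degron cells (median -0.17 on the log2 scale), where 26.0% of all tested genes rose and 25.5% fell. In parental cells 3 rose and 5 fell, with a median of -0.08, against 15.9% and 15.7% of all tested genes. Between the treated lines 6 were higher and 8 lower in SDS22-degron cells, against 21.8% and 23.1%. GPI, the isomerase after hexokinase, fell by 0.71 on the log2 scale in SDS22-degron cells (adjusted p = 2.8e-08) and by 0.28 in parental cells (adjusted p = 0.00162).
ALDOC, the aldolase typical of brain, went the other way: it was at 48.0, 45.7 and 48.4 CPM in untreated and 142, 97.3 and 152 CPM in treated SDS22-degron libraries, and at 46.4, 29.2 and 39.3 CPM and 58.9, 30.2 and 54.4 CPM in the parental ones. All 3 treated SDS22-degron libraries stood above the other 9, and the log2 fold change was 1.46 (adjusted p = 4.74e-06). ALDOA, the aldolase of muscle and most other tissues, fell by 0.35 in the same comparison (adjusted p = 0.000199), and it has pseudogenes with counts equal to 9.19% of its own. LDHB, the other lactate dehydrogenase subunit, fell by 0.55 on the log2 scale in SDS22-degron cells (adjusted p = 1.48e-06) and by 0.30 in parental cells (adjusted p = 0.00195). The difference between these LDHB responses, -0.25, was not called (adjusted p = 0.0758). LDHB has 3 pseudogenes with counts equal to 17.9% of its own.

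**Figure D4:**
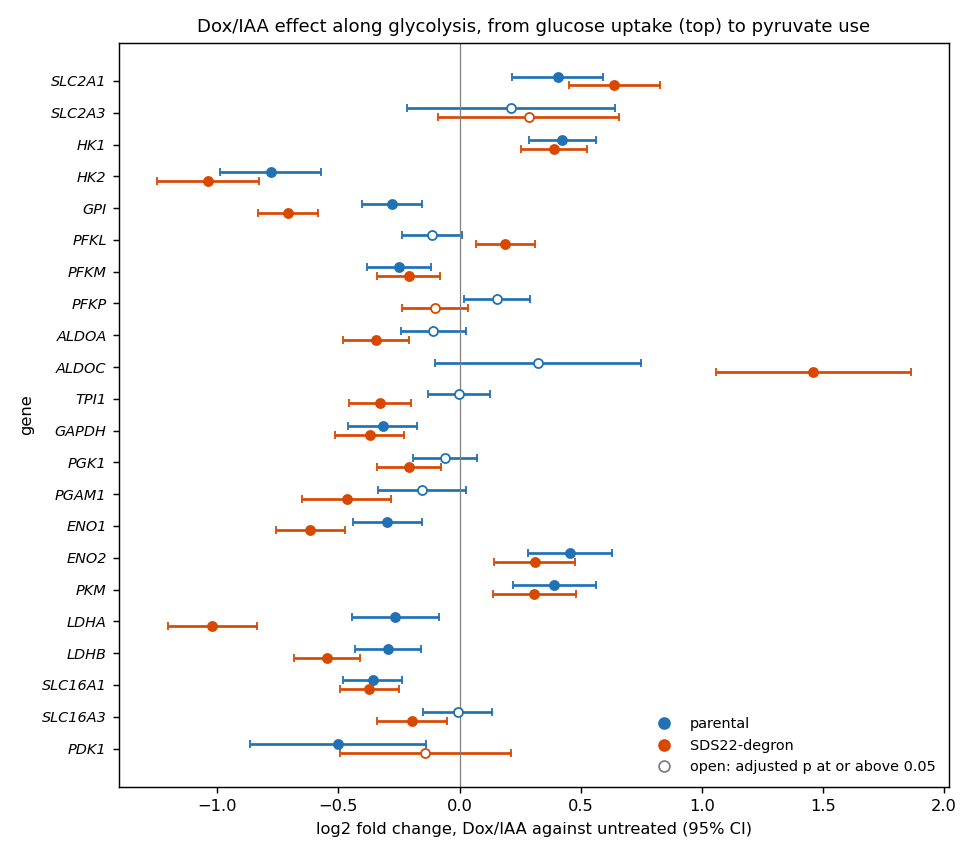
Log2 fold change with Dox/IAA (horizontal axis, 95% CI) in parental and SDS22-degron cells for genes in the order of their steps from glucose uptake to pyruvate use, with open points where the adjusted p was 0.05 or higher. HK2 (-1.04) and LDHA (-1.02) are the farthest to the left and ALDOC (1.46) the farthest to the right in SDS22-degron cells.

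Of a wider list of 27 hypoxia-responsive genes, 25 were tested, since LOX and VLDLR had 0 counts in all libraries, in which the part of the counting was not tested. With Dox/IAA 13 rose and 2 fell in SDS22-degron cells (median 0.32 on the log2 scale), where 26.0% of all tested genes rose and 25.5% fell. In parental cells 7 rose and 3 fell, with a median of 0.15, against 15.9% and 15.7%. Scaled by library size alone, 11 rose in parental cells. The difference between the responses was called for 3 above and 1 below 0, against 6.03% and 8.35% of all tested genes.
NDRG1, a stress-responsive gene long used as a hypoxia marker, rose 2.18-fold in SDS22-degron cells (adjusted p = 3.74e-09), and its log2 fold change of 1.12 was close to the 1.10 of parental cells (difference 0.02, 95% CI -0.21 to 0.25). BNIP3L (NIX), the mitophagy receptor related to BNIP3, rose by 0.88 (adjusted p = 2.8e-06) in SDS22-degron and by 0.44 (adjusted p = 0.00622) in parental cells. The difference between these BNIP3L responses, 0.44, was not called (adjusted p = 0.0693). Genes that overlap BNIP3L had 2300 counts against its 8361. AK4, a mitochondrial adenylate kinase, fell by 0.75 (adjusted p = 1.15e-06) in SDS22-degron cells and by 0.85 (adjusted p = 2.61e-06) in parental cells, all on the log2 scale.
PLOD1 (a collagen lysyl hydroxylase) and GBE1 (the glycogen branching enzyme) were lower in treated SDS22-degron than in treated parental cells, by -0.93 (adjusted p = 6.43e-09) and -0.63 (adjusted p = 1.01e-05) on the log2 scale. They differed as much between the untreated lines, by -0.97 and -0.66, and NDRG1 did so too, by -0.61 treated and -0.63 untreated. PLOD1 lies on chromosome 1 within 5 Mb of ENO1, in the neighbourhood described above.

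**Figure D5:**
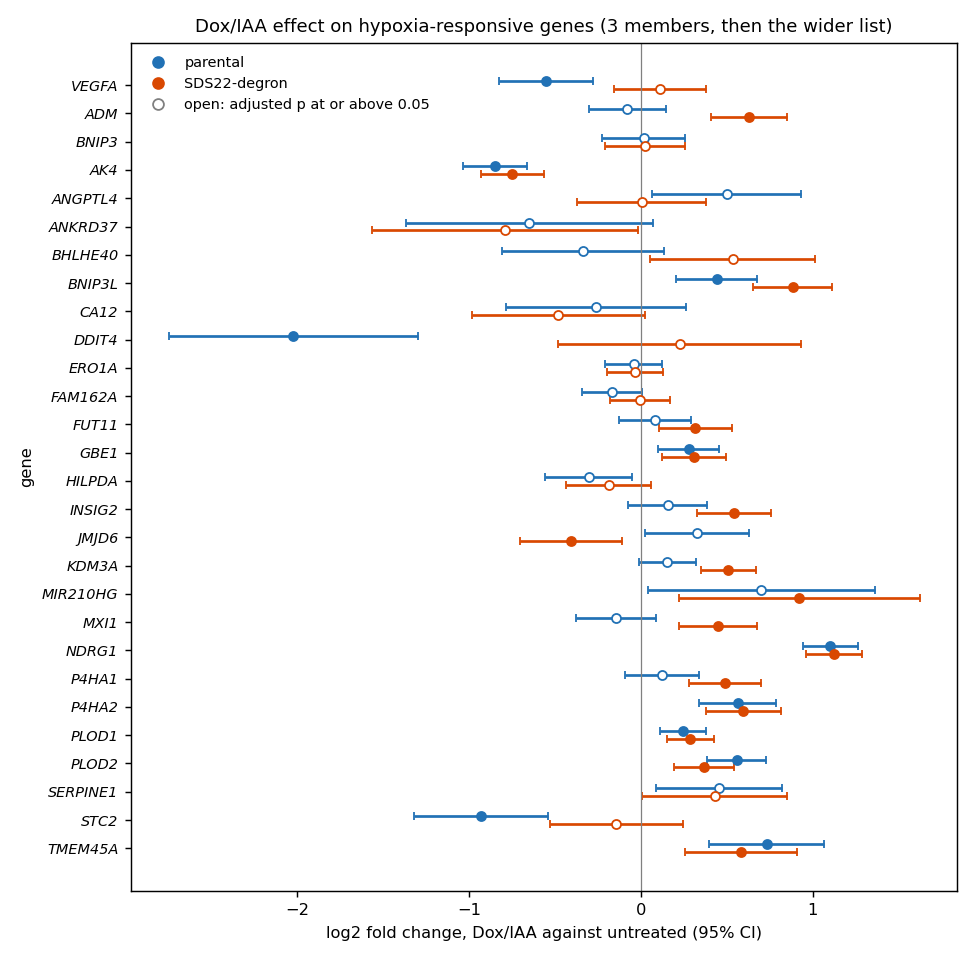
Log2 fold change with Dox/IAA (horizontal axis, 95% CI) in parental and SDS22-degron cells for VEGFA, ADM and BNIP3 and for the 25 tested genes of the wider list in alphabetical order, with open points where the adjusted p was 0.05 or higher. Most filled points of SDS22-degron cells (13 of 15 in the wider list) lie right of 0.

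Of the genes that sense oxygen or form the HIF complexes, 16 of 17 were tested. With Dox/IAA 9 of them rose and 1 fell in SDS22-degron cells, against 26.0% and 25.5% of all tested genes, and 5 rose and 2 fell in parental cells, against 15.9% and 15.7%. EPAS1, which encodes HIF-2 alpha, was at 79.0, 76.2 and 98.2 CPM in untreated and 106, 89.5 and 112 CPM in treated parental libraries, and at 137, 143 and 144 CPM and 212, 211 and 239 CPM in the SDS22-degron ones. It was 2.15-fold higher in treated SDS22-degron than in treated parental cells (adjusted p = 4.46e-08) and already higher between the untreated lines, by 0.74 on the log2 scale (adjusted p = 1.28e-05).
CITED2, which competes with HIF for the coactivator CBP/p300, fell by 0.42 (adjusted p = 0.0049) in parental and rose by 0.36 (adjusted p = 0.0056) in SDS22-degron cells on the log2 scale. The HIF partners ARNT and ARNT2 rose in SDS22-degron cells, with log2 fold changes of 0.48 (adjusted p = 6.56e-06) and 0.71 (adjusted p = 6.43e-05), and in parental cells, with 0.41 (adjusted p = 0.000156) and 0.61 (adjusted p = 0.00192). EGLN3, a HIF prolyl hydroxylase, was 1.92-fold higher in treated SDS22-degron than in treated parental cells (adjusted p = 1.55e-05). Between the untreated lines it was already 2.16-fold higher in SDS22-degron cells (adjusted p = 2.92e-05). The difference between the EGLN3 responses to Dox/IAA, -0.17 on the log2 scale, was not called (adjusted p = 0.624). EGLN3 comes with the reserve that it overlaps SPTSSA, which had 3469 counts against 1041, on the same strand. HIF activity is set mostly by protein stability, which RNA does not measure.

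Of 12 genes around PDK1 that govern the entry of pyruvate into the mitochondria, 2 rose and 3 fell with Dox/IAA in SDS22-degron cells, against 26.0% and 25.5% of all tested genes. In parental cells 1 rose and 2 fell, against 15.9% and 15.7%. The difference between the responses was called for 0 of 12 by edgeR, where it was called for 14.4% of all tested genes, and for 0 by DESeq2. For 2 of them (DLAT and PDK4) its unadjusted p was under 0.05. DLAT and PDHA1, which encode subunits of pyruvate dehydrogenase, fell in SDS22-degron cells by 0.60 (adjusted p = 9.05e-06) and 0.46 (adjusted p = 8.48e-06) and in parental cells by 0.34 (adjusted p = 0.00406) and 0.29 (adjusted p = 0.00204) on the log2 scale. PDHB, a further subunit, was lower in SDS22-degron cells whether treated (-0.33, adjusted p = 0.000427) or not (-0.35, adjusted p = 0.000625). Of the kinases related to PDK1, PDK4 rose 2.08-fold in SDS22-degron cells (adjusted p = 0.00011) and had a log2 fold change of 0.47 (adjusted p = 0.0574) in parental cells. The level of PDK4 was low, with means of 2.13 CPM in untreated and 4.43 CPM in treated SDS22-degron cells. In parental cells these means were 2.94 and 4.07 CPM. PDK2, named here after its values were seen, had log2 fold changes of 0.01 (adjusted p = 0.892) in SDS22-degron and 0.10 (adjusted p = 0.308) in parental cells. PDK3 rose by 0.44 (adjusted p = 0.00848) in SDS22-degron and by 0.54 (adjusted p = 0.0107) in parental cells on the log2 scale.

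Genes of the MondoA and ChREBP system, which senses glucose 6-phosphate, made the last list, of which 4 of 5 were tested because TXNIP had 0 counts in all libraries, in which the part of the counting was not tested. ARRDC4, an arrestin-domain target of this system that limits glucose uptake, was at 1.6, 1.64 and 1.24 CPM in untreated and 2.25, 1.98 and 0.865 CPM in treated parental libraries. In SDS22-degron libraries ARRDC4 was at 4.16, 3.71 and 4.1 CPM untreated and 14.6, 15.1 and 9.8 CPM treated. The groups of the lines did not overlap, and it was 7.72-fold higher between the treated lines (adjusted p = 1.93e-08) after a log2 difference of 1.41 (adjusted p = 0.00101) between the untreated ones. MLXIPL (ChREBP) rose by 0.42 (adjusted p = 0.00313) in SDS22-degron and by 0.48 (adjusted p = 0.0029) in parental cells on the log2 scale. MLX, the shared partner, fell by 0.24 (adjusted p = 0.00644) in SDS22-degron cells on the log2 scale. In parental cells the log2 fold change of MLX was -0.02 (adjusted p = 0.894). The difference between the MLX responses, -0.23, was not called (adjusted p = 0.128). MLX overlaps PSMC3IP on the other strand, and the strand setting of the counting was not given in the sources used here.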

How the data were processed

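For 12 libraries, the authors deposited gene counts that were not normalized, with the length of each gene and its GC content as a percent. Per the labels, RNA was poly-A selected, made into stranded libraries and sequenced as single reads, and the submitters' processing notes name cutadapt 1.15, Bowtie2 2.3.3.1, STAR 2.5.2b, SAMtools 1.5, featureCounts 1.5.3 and GRCh38, with no order. The annotation release, the strand setting and the handling of reads with several matches were not given in the sources used here, which bears on genes with pseudogenes or antisense neighbours. Columns without a sample numbered 0.

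Genes were filtered with filterByExpr (minimum count 10), normalized with TMM (factors 0.971 to 1.03) and fitted in edgeR 4.0.16 (R 4.3.3) with 4 group means over all 12 libraries. The quasi-likelihood F test was used in place of the likelihood ratio test of the study, which was an alternative, with Benjamini-Hochberg adjustment of p over 16657 genes. Standard errors and 95% CI follow from each fold change and its F value. The median standard error was 0.11 between 2 groups and 0.16 for the difference between responses (log2). Counting error and replicate spread both enter, and the intervals for a count of 0 (3 counts) cover counting error only. No 2 libraries were identical, and replicates differed by more than counting noise. Simulated counts, in which 200 genes were changed, were used to test the scripts.

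Samples with the same replicate number deviated from their group means together, with correlations of 0.101, 0.133 and 0.138 between the treated lines and 0.124, 0.246 and 0.131 between untreated and treated parental cells, so the numbers were taken to pair these. In the other comparisons at least 1 correlation was under 0.1, and the samples were taken to share a number only. The main fit held no term for the replicate number, so its p values and CI are not paired. The replicate block was an alternative fit. The design text speaks of 3 independent experiments.

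The genes and lists were chosen with earlier results of these data known, and the lists were written from general knowledge. All 10 genes are named. Of each list, the 3 genes of smallest p are named, once for the treated lines and once for Dox/IAA in SDS22-degron cells. Results were recomputed with the likelihood ratio test, DESeq2 1.42.0, library size or upper-quartile scaling, no filter (at least 1 count) or a stricter one (1 CPM), only the groups compared, the replicate block, a GC correction per library with and without it, and leaving out each library. The addition of pseudogene counts was chosen after seeing the data. Promoters are those of RefSeq on GRCh38.p14.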

Additional observations from a re-analysis of the deposited data

Results flagged for a closer look

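The response to Dox/IAA differed between the lines, by the test of the difference itself (edgeR's quasi-likelihood test, Benjamini-Hochberg adjusted), for 15 of the 90 tested genes of the lists and markers (16.7%), where it did for 14.4% of all tested genes. On the log2 scale, SDS22-degron minus parental, the difference was -0.76 for LDHA (adjusted p = 0.000461), -0.32 for ENO1 (adjusted p = 0.0315) and -0.43 for GPI (adjusted p = 0.00211). It was 0.66 for VEGFA (adjusted p = 0.0199), 0.71 for ADM (adjusted p = 0.00377) and 1.14 for ALDOC (adjusted p = 0.00992). It was 0.78 for CITED2 (adjusted p = 0.00139), 1.54 for ARRDC4 (adjusted p = 0.0137) and 2.25 for DDIT4 (adjusted p = 0.00406). Treated SDS22-degron libraries were apart from the untreated ones, without overlap, for LDHA, ENO1, GPI, ADM, ALDOC, CITED2 and ARRDC4, and overlapped with them for VEGFA and DDIT4. In parental cells the treated and untreated libraries were apart for VEGFA, DDIT4, ENO1, GPI and CITED2, and overlapped for LDHA, ADM, ALDOC and ARRDC4.

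The others were named after their values were seen. In the wider hypoxia list they were MXI1, a MYC antagonist (0.60, adjusted p = 0.0144), KDM3A, a histone demethylase (0.36, adjusted p = 0.0363), and JMJD6 (-0.73, adjusted p = 0.0198). In glycolysis they were PFKL, the liver-type phosphofructokinase (0.30, adjusted p = 0.0192), and TPI1, triose phosphate isomerase (-0.33, adjusted p = 0.0158), whose pseudogenes had counts equal to 66.5% of its own. The difference for CDH1, the epithelial cadherin, was 0.64 (adjusted p = 0.029).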

How the results depend on the processing

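For the 9 tested genes in 5 comparisons, 1026 values were recomputed under the alternatives, of which 983 kept their side of the threshold, 38 lost a call and 5 gained one. No called value changed sign. Values that were called neither before nor after crossed 0 in 35 cases, belonging to 7 results, and then lay between -0.11 and 0.12. At the cut-off of the study, 0 of the 9 genes passed in either direction, apart from the 2 lower with Dox/IAA in SDS22-degron cells. Of these, HK2 was inside that cut-off under 1 of 23 alternatives (library size only, -0.999) and LDHA under 4, at -0.98 for library size only and the GC correction with or without the block, and at -0.99 without treated SDS22-degron replicate 2. Adding pseudogene counts gave 2 higher between the untreated lines and lost the HK2 call between the treated lines. Library size only or only the groups compared gave 3 lower with Dox/IAA in parental cells. With 1 library left out, the genes called lower were 0 to 2 between the untreated lines, 3 to 5 with Dox/IAA in parental cells and 1 to 2 for the difference between responses, and those higher for that difference were 1 to 2. The lowest of these came without untreated parental replicate 2, treated parental replicate 3 and, for the higher ones, untreated parental replicate 1 or untreated SDS22-degron replicate 2. Between the treated lines, leaving out single libraries lost the calls of HK2 or ADM, or gained one for BNIP3 or PDK1. The PGK1 call with Dox/IAA in SDS22-degron cells was lost without treated SDS22-degron replicate 2. The replicate block gave 4 higher and 3 lower between the treated lines, with PDK1 the gene gained at 0.28 (adjusted p = 0.0453), and it changed no other call of these genes. All 12 libraries were closest in their deviations to a library of their own number. The causes of these changes were not tested. With 3 libraries a group, a standard error of about 0.11 limits what can be called, and PDK1, with 1857 counts in all, had 0.18 between the treated lines.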

Other observations

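DDIT4 (REDD1), an inhibitor of mTORC1 that low oxygen and energy stress induce, had the largest difference between responses in the wider hypoxia list and is named here after its values were seen. It was at 336, 95.6 and 114 CPM in untreated and 60.1, 25.6 and 48.0 CPM in treated parental libraries, and at 68.9, 65.0 and 67.5 CPM and 88.2, 80.1 and 66.9 CPM in the SDS22-degron ones. The treated parental libraries were the lowest of all and untreated parental replicate 1 was by far the highest. That library was also the highest for VEGFA, HK2 and PDK1, by less. The fall in parental cells was -2.02 on the log2 scale, or -1.24 (adjusted p = 0.000287) without that library, and the difference between the responses of 2.25 was then 1.45 (adjusted p = 0.0021).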
